A study of Caenorhabditis elegans with 12 samples.

Results

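The comparison described here sets Caenorhabditis elegans carrying the lonp-1(cmh24) allele against wildtype worms, across all genes, in the RNA of whole L4 larvae. The members are the 6 libraries of these groups, 3 labelled as biological replicates of each, of the 12 libraries of a study that also sequenced mrps-38(P210L) and the double mutant of both alleles, and the 15701 of 19568 genes whose mean over the 6 libraries reached 10 normalized counts. Wildtype worms are labelled N2, the mutants carry lonp-1(cmh24) with no other allele named, and all were fed the E. coli strain HT115 and collected at the L4 stage, the last larval stage before the adult molt. Neither a driver line nor a clone enters the design, and each group carries 1 named genotype, so any other difference between the strains goes with the allele. Nothing in the labels dates or ages the worms beyond L4, and each library is the average of all tissues of many worms. In such RNA, fewer cells of a type and less RNA per cell cannot be told apart.

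lonp-1 encodes LON, an ATP-driven protease of the mitochondrial matrix that degrades damaged and unassembled proteins and, in other animals, proteins bound to mitochondrial DNA. Mitochondria make a small set of respiratory chain proteins from their own genome, with their own rRNAs and ribosomes, and import all other proteins from the cytosol. When matrix protein handling fails in C. elegans, the transcription factor ATFS-1 enters the nucleus and turns on the mitochondrial unfolded protein response, whose best known targets are the chaperones hsp-6 and hsp-60. The L4 stage is also the time when the germ line finishes making sperm and turns to oocytes, when the intestine begins to make yolk, and when the skin builds the adult cuticle.

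The deposited values used here were the authors' DESeq2 normalized counts, which are reads per gene divided by 1 size factor per library. Each of the 6 libraries held 22677791 to 22850508 reads in genes, with 18515 to 18610 genes detected in wildtype and 19131 to 19209 in lonp-1(cmh24). Values below are normalized counts, or log2 fold changes of lonp-1(cmh24) over wildtype ± SE from limma on log2(normalized count + 1), with n = 3 libraries a group. The words rose and fell stand for a two-sided Benjamini-Hochberg adjusted p under 0.05. The first principal component of these 6 libraries held 89.9% of the variance and separated the groups.

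Of the genes tested, 63.5% were called, 4720 of them higher in lonp-1(cmh24) (30.1%) and 5249 lower (33.4%). Among these, 1776 were at least 2-fold higher (11.3%) and 1063 at least 2-fold lower (6.77%). These shares are the background against which the counts of each gene list with the authors' factors are to be read. The groups did not overlap in 5101 of the 15701 genes with the mutant higher and in 5712 with the mutant lower. The scaling mattered for small changes, because the size factors of the mutant libraries (1.1863 to 1.2153) were above those of wildtype (1.0082 to 1.0525) at equal read totals. With scaling to total reads the median of all genes moved by 0.226 on the log2 scale, and 6429 genes were called higher and 3203 lower. Calls that held with the authors' factors, TMM factors and total reads numbered 4715 higher (30.0%) and 3203 lower (20.4%), and no gene was called in opposite directions. Counts with scaling to total reads are therefore given beside those of the lists, and their background is 6429 higher and 3203 lower of 15701 genes. Members of families of near-identical genes, such as msp, col, vit, fbxa and the sr chemoreceptors, share sequence, and the split of reads among them is uncertain.

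**Figure D1:**
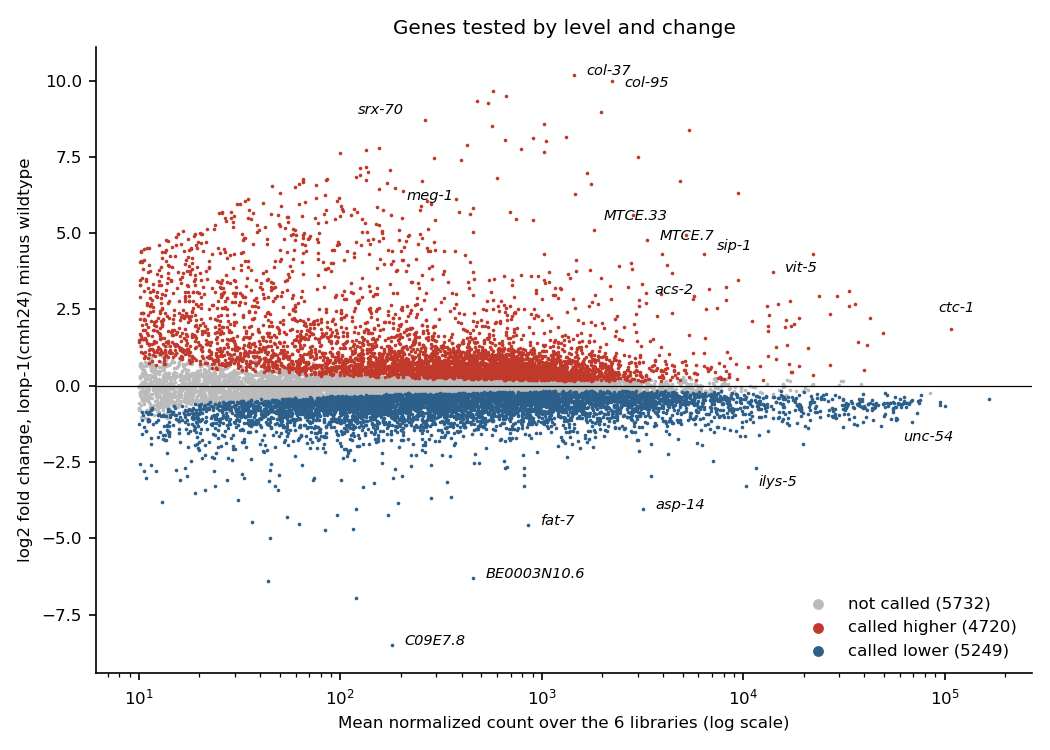
Each point is a gene tested, placed by its mean normalized count over the 6 libraries (log axis) and its log2 fold change of lonp-1(cmh24) over wildtype, with called genes in red (4720 higher) and blue (5249 lower) and the others in grey. The largest rise is that of col-37 and the largest fall that of C09E7.8, and 257 of the 324 genes with a mean of at least 10000 were called lower.

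The lonp-1 transcript (WBGene00016391, chromosome I, 10676922 to 10682374, WBcel235) was still made in the mutant. It stood at 1663, 1759 and 1643 in wildtype and 1341, 1333 and 1344 in lonp-1(cmh24). Every mutant library lay below every wildtype library, as in 5712 of the 15701 genes tested. The change was -0.33 ± 0.06 (adjusted p = 0.00107, limma), and with scaling to total reads it was -0.10 and did not pass (adjusted p = 0.214). The call held with TMM factors, edgeR and DESeq2 and was lost with total reads and on the FPKM table. The transcript level does not show what protein the allele makes.

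Transcripts of mitochondrial DNA rose together. All 12 mRNAs rose at least 2-fold (median 1.76, 1.99 with scaling to total reads), and genes of mitochondrial DNA took 0.713, 0.689 and 0.607% (wildtype) and 2.30, 3.00 and 2.89% (lonp-1(cmh24)) of reads. The mutant libraries did not overlap with wildtype in this share (exact permutation test, two-sided p = 0.1, the smallest that 3 against 3 libraries allow). ctc-1, which encodes subunit I of cytochrome c oxidase and gave the most reads of the 12, stood at 49110, 45832 and 43213 in wildtype and 141403, 185743 and 180782 in lonp-1(cmh24) (1.87 ± 0.12). atp-6, an ATP synthase gene, stood at 15249, 15429 and 13872 in wildtype and 55841, 78930 and 76780 in lonp-1(cmh24) (2.23 ± 0.13). The complex III gene ctb-1, for cytochrome b, stood at 26075, 23178 and 21150 in wildtype and 52431, 61988 and 61153 in lonp-1(cmh24) (1.32 ± 0.10). Among the complex I genes the change ran from 1.13 ± 0.16 for ndfl-4 and 1.14 ± 0.11 for nduo-3 to 2.04 ± 0.10 for nduo-5 and 2.14 ± 0.15 for nduo-2. The cytochrome oxidase genes ctc-2 and ctc-3 rose by 1.42 ± 0.15 and 1.72 ± 0.10.

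Reads of the 2 mitochondrial rRNA genes rose much further than those of the mRNAs, from a low level. The small-subunit rRNA MTCE.7 (mitochondrial DNA, 898 to 1593) stood at 227, 271 and 209 in wildtype and 5203, 7269 and 6910 in lonp-1(cmh24), a change of 4.76 ± 0.13 (adjusted p = 1.65e-08, limma). The large-subunit rRNA MTCE.33 (mitochondrial DNA, 10403 to 11354) stood at 125, 91.2 and 87.7 in wildtype and 2820, 4021 and 3705 in lonp-1(cmh24), a change of 5.11 ± 0.16 (adjusted p = 2.74e-08). Replicate 1 was the lowest mutant library for both, and also for ctc-1, atp-6 and ctc-2. Without it the 2 rRNA changes were 4.91 and 5.26. The step that selects RNA for the libraries is not given in the sources used here.

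**Figure D2:**
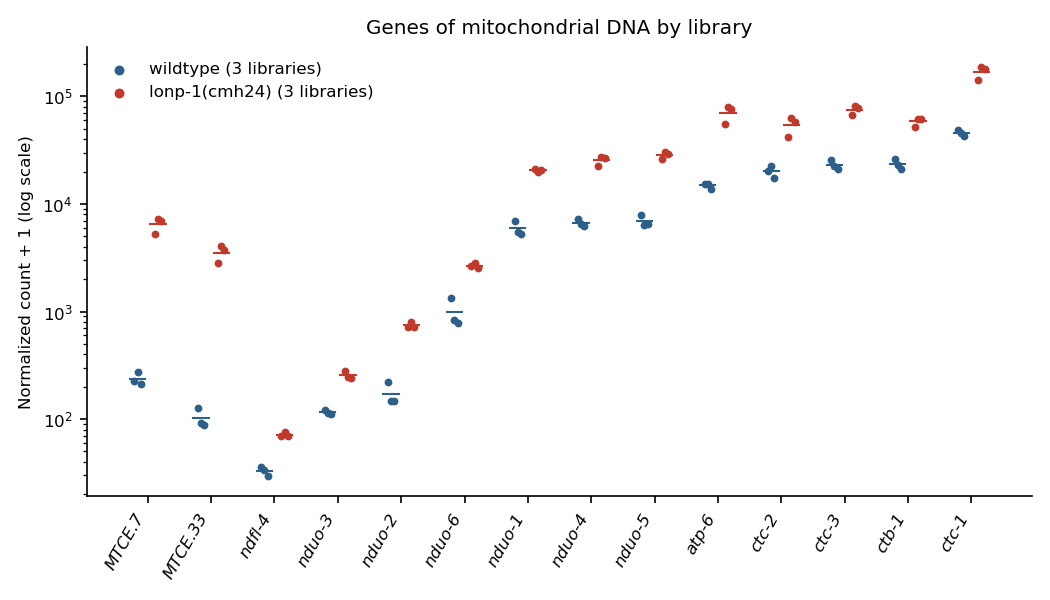
Normalized count + 1 (log axis) of the 14 tested genes of mitochondrial DNA in each wildtype (blue) and lonp-1(cmh24) (red) library, with a bar at the group mean. All 3 mutant libraries lie above all 3 wildtype libraries for every gene, and the gap is widest for the rRNA genes MTCE.7 and MTCE.33. Over all 15701 genes tested, 5101 show this lack of overlap with the mutant higher.

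Nuclear genes that copy and express mitochondrial DNA moved in several directions. polg-1, the mitochondrial DNA polymerase, stood at 204, 231 and 193 in wildtype and 459, 420.5 and 473 in lonp-1(cmh24) (1.10 ± 0.10). The RNA polymerase rpom-1 (0.44 ± 0.08) and the transcription factor and rRNA methyltransferase homolog tfbm-1 (0.64 ± 0.11) rose too (hmg-5, the TFAM homolog that packages mitochondrial DNA, stood at 595, 576 and 517 in wildtype and 585, 774 and 735 in lonp-1(cmh24), a rise whose call was lost when any of 4 libraries was left out). The helicase twnk-1 fell (-0.65 ± 0.15, but adjusted p = 0.0605 on the FPKM table), and the single-strand binding protein mtss-1 fell with the authors' factors (-0.28 ± 0.08) but not with total reads (-0.05, adjusted p = 0.612), in DESeq2 (adjusted p = 0.059) or when any of 3 libraries was left out. hoe-1, the mitochondrial and nuclear tRNA-end nuclease ELAC2, rose by 0.64 ± 0.06, and nsun-4, an rRNA methyltransferase, by 0.38 ± 0.08.

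All 5 genes listed for mitochondrial translation rose. The changes ran from 0.27 ± 0.07 for tufm-1, the factor that brings tRNAs to the ribosome, to 1.35 ± 0.16 for mttu-1. The exchange factor of tufm-1, tsfm-1, rose by 0.86 ± 0.06. gfm-1, the translocase, rose by 0.59 ± 0.07. The mitochondrial tRNA synthetases did not move as a block, since 5 of 12 tested members rose and 3 fell (7 higher and 0 lower with total reads). rars-2 and nars-2, which charge arginine and asparagine tRNAs, led the rise (0.85 ± 0.09 and 0.66 ± 0.09). Proteins of the mitochondrial ribosome itself were mostly lower or not called. In the small subunit, 2 of 29 tested members rose and 19 fell (median -0.32; 5 higher and 11 lower with scaling to total reads, median -0.09), with mrps-28 at -0.71 ± 0.08 and mrps-23 at -0.67 ± 0.11 against a rise of mrps-14 (0.49 ± 0.06). In the large subunit, 0 of 42 tested members rose and 22 fell (median -0.21; 7 higher and 4 lower with scaling to total reads, median 0.02), so that the sign of its median depends on the scaling. mrpl-12 fell in that subunit under all 3 scalings (-0.69 ± 0.08 with the authors' factors).

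The proteases and chaperones of mitochondria rose unevenly. Of the proteases, 7 of 15 tested members rose and 3 fell (median 0.15; 11 higher and 1 lower with scaling to total reads, median 0.38). stl-1, a stomatin-like scaffold protein of the inner membrane, stood at 1041, 1013 and 1040 in wildtype and 3806, 3593 and 3472 in lonp-1(cmh24), the largest rise of that list (1.81 ± 0.06, adjusted p = 4.88e-08). The inner membrane protease ymel-1 (0.50 ± 0.07) and the presequence peptidase pitr-1 (0.65 ± 0.08) rose by less. The matrix protease clpp-1 stood at 786, 829.5 and 784 in wildtype and 753, 810.5 and 835 in lonp-1(cmh24) and was not called with the authors' factors, but was called higher with total reads (0.23, adjusted p = 0.0359). The inner membrane peptidase immp-1 fell (-0.57 ± 0.11). In the mitochondrial unfolded protein response, 10 of 16 tested members rose and 5 fell (median 0.50; 11 higher and 1 lower with scaling to total reads, median 0.73). hsp-6, the mitochondrial HSP70, stood at 13788, 11676 and 13022 in wildtype and 23579, 19267 and 20132 in lonp-1(cmh24) (0.71 ± 0.10). Its groups did not overlap, as in 5101 of the 15701 genes tested with the mutant higher. hsp-60, its partner chaperonin, went the other way at 22112, 19224 and 20524 in wildtype and 16234, 14777 and 15250 in lonp-1(cmh24) (-0.42 ± 0.08, and -0.19 with total reads, adjusted p = 0.0389). atfs-1 stood at 1229, 1134 and 1212 in wildtype and 1847, 1860 and 1864 in lonp-1(cmh24) (0.64 ± 0.06). haf-1, the peptide exporter tied to that response, rose by 0.76 ± 0.14, while ubl-5, a cofactor of the response, was lower with the authors' factors but not with total reads (-0.12, adjusted p = 0.372) or without wildtype replicate 1 (adjusted p = 0.0619). cyp-14A4, a cytochrome P450 used as a marker of the response, went from 24.0 ± 3.10 to 533 ± 49.8 (SD) and rose by 4.42 ± 0.14.

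Import channels rose in part, with 6 higher and 1 lower of 13 tested members (7 higher and 0 lower with total reads). The inner membrane channel genes timm-23 (0.70 ± 0.09) and timm-17B.1 (0.52 ± 0.07) and the receptor tomm-70 (0.49 ± 0.08) rose. The pore gene tomm-40 was called with total reads (0.39), edgeR (0.19) and DESeq2 (0.21) but not with the authors' factors (0.16 ± 0.07). Among genes of fission, fusion and mitophagy, 9 of 14 tested members rose and 1 fell (median 0.32; 12 higher and 0 lower with scaling to total reads, median 0.55). The fission adaptor homolog mff-2 stood at 422, 388 and 426 in wildtype and 1620, 1252 and 1302 in lonp-1(cmh24) (1.75 ± 0.10) and the fission GTPase drp-1 at 1500, 1524 and 1500 in wildtype and 3250, 3113 and 3198 in lonp-1(cmh24) (1.08 ± 0.06). allo-1, an autophagy receptor for paternal mitochondria, rose by 1.65 ± 0.07. The mitophagy receptor dct-1 rose by 1.08 ± 0.11 and the kinase pink-1 by 0.60 ± 0.09. The fusion GTPase eat-3 was called with total reads (0.37), edgeR (0.18) and DESeq2 (0.19) but not with the authors' factors (0.14 ± 0.06).

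Nuclear subunits of the respiratory chain were mostly lower with the authors' factors, by small amounts. All 13 listed complex I subunits were called lower with the authors' factors (median -0.29), and 1 with total reads (median -0.06), which was nduf-9 (-0.50 ± 0.06). Of the ATP synthase subunits, 1 of 14 tested members rose and 12 fell (median -0.36; 1 higher and 6 lower with scaling to total reads, median -0.13). asg-1, a subunit g gene, fell by 0.72 ± 0.07 and atp-4 fell by 0.58 ± 0.09. Respiratory assembly factors held 3 that rose and 2 that fell of 15 (7 higher and 1 lower with total reads), led by cox-15, which makes heme a (0.55 ± 0.07). In ubiquinone synthesis 4 of 8 tested members rose and 0 fell (7 higher and 0 lower with total reads), with coq-1, the enzyme of the isoprenoid tail, at 1120, 1151 and 1061 in wildtype and 2600, 2314 and 2393 in lonp-1(cmh24) (1.13 ± 0.07) and the hydroxylase clk-1 at 0.57 ± 0.08. Of the ADP/ATP carriers, ant-1.3 (-1.03 ± 0.09) and ant-1.4 (-1.21 ± 0.09) fell at least 2-fold. The calcium uniporter mcu-1 (0.36 ± 0.07), its subunit emre-1 (0.35 ± 0.09) and the exchanger letm-1 (0.50 ± 0.06) rose.

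**Figure D3:**
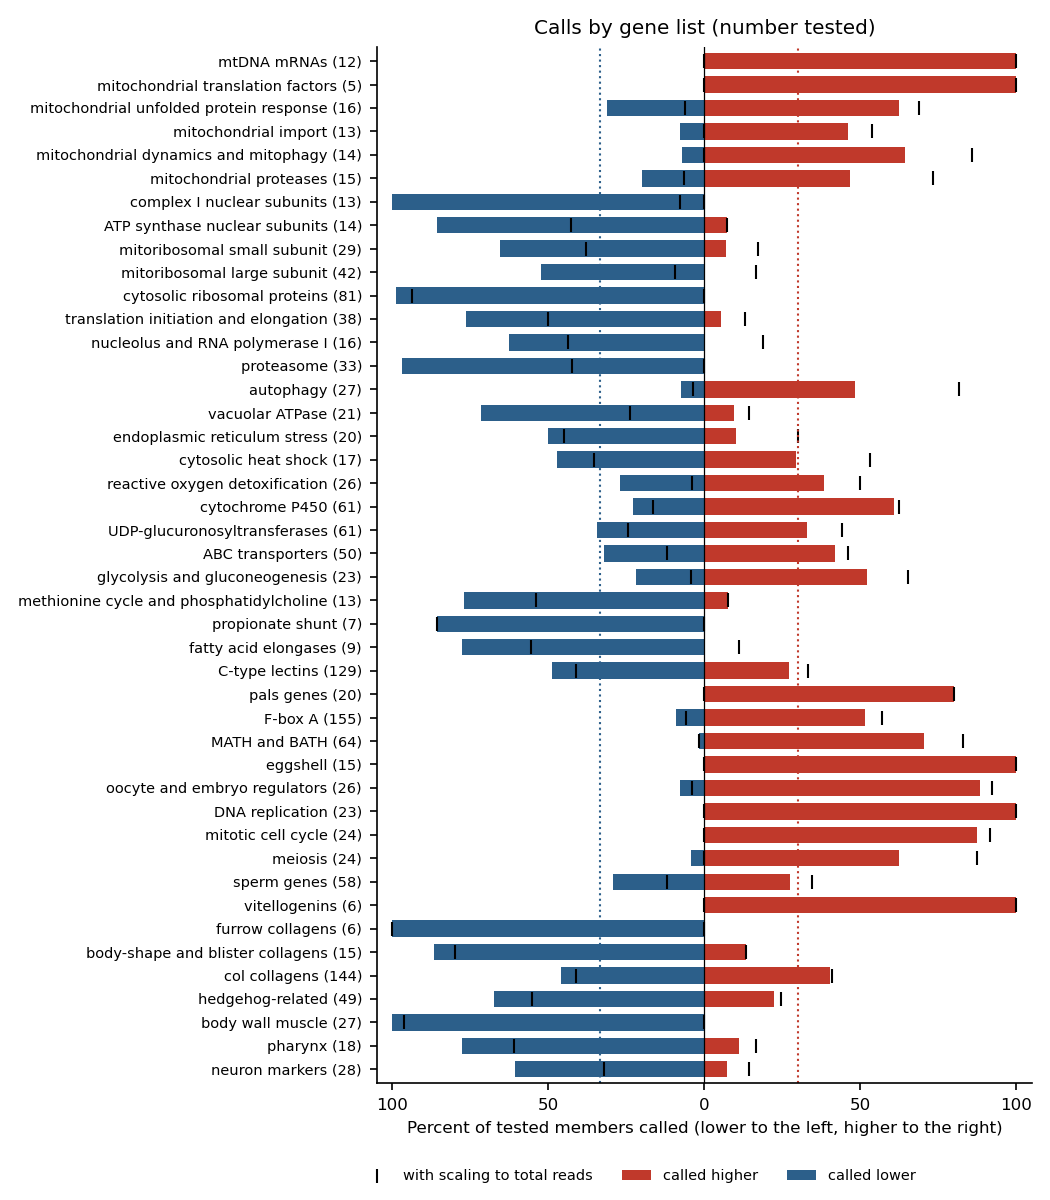
Bars give the percent of tested members of each gene list (number tested in brackets) called higher (red, to the right) or lower (blue, to the left) in lonp-1(cmh24). Dotted lines give the percent over all genes tested with the authors' factors (30.1 and 33.4). Black ticks give the lists with scaling to total reads, for which the dotted lines are not the background (6429 higher and 3203 lower of 15701 genes). The lists of mitochondrial mRNAs, eggshell genes, DNA replication and vitellogenins are called higher throughout, and cytosolic ribosomal proteins, furrow collagens and body wall muscle lower, while the bar of complex I shrinks with total reads.

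Cytosolic and secretory chaperones did not rise as groups. Of the cytosolic heat shock genes, 5 of 17 tested members rose and 8 fell (median -0.02; 9 higher and 6 lower with scaling to total reads, median 0.21). sip-1, a small heat shock protein of oocytes and embryos, stood at 542, 619 and 640.5 in wildtype and 10013, 14148 and 12386 in lonp-1(cmh24) (4.33 ± 0.12), while the heat-inducible small chaperones hsp-16.2 (-1.37 ± 0.14) and hsp-16.41 (856, 873 and 841 in wildtype and 214, 214 and 189.9 in lonp-1(cmh24), a change of -2.05 ± 0.09) fell. hsp-90 was not called (0.05 ± 0.10), though it was higher with total reads (0.28, adjusted p = 0.015). In the endoplasmic reticulum, 2 of 20 tested members rose and 10 fell (median -0.27; 6 higher and 9 lower with scaling to total reads, median -0.04). The calcium-binding chaperone crt-1 (-1.0 ± 0.09), the disulfide isomerases pdi-2 (-0.85 ± 0.11) and pdi-3 (-0.94 ± 0.08) and the BiP homolog hsp-3 (-0.82 ± 0.12) fell, and the sensor kinase ire-1 rose (0.46 ± 0.06). The abu genes, named for activation when that response is blocked, held no riser and 8 that fell of 12 (1 higher and 6 lower with total reads), with abu-14 at -1.04 ± 0.08.

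Redox genes were mixed. Of the antioxidant genes, 10 of 26 tested members rose and 7 fell (median 0.03; 13 higher and 1 lower with scaling to total reads, median 0.26). sod-3, a mitochondrial superoxide dismutase that is a common target of DAF-16, stood at 47.6, 88.4 and 57.2 in wildtype and 196, 192 and 183 in lonp-1(cmh24) (1.60 ± 0.20), and the glutathione peroxidase gene gpx-8 rose by 3.23 ± 0.26. sod-2, the other mitochondrial superoxide dismutase, was lower with the authors' factors and not with total reads (-0.13, adjusted p = 0.102). The flavin monooxygenase fmo-2, which mitochondrial stress and fasting are known to induce, stood at 29.8, 16.1 and 33.5 in wildtype and 454, 377 and 391 in lonp-1(cmh24) (3.95 ± 0.24), whereas fmo-3 (-0.56 ± 0.08) and fmo-5 (-0.75 ± 0.12) fell. Genes of the hypoxia and sulfide response were mostly lower or not called, with 2 higher and 6 lower of 14 tested members (5 higher and 5 lower with total reads). cysl-2, the cyanoalanine synthase that HIF-1 induces, stood at 4067, 3824 and 4030 in wildtype and 1539, 1145 and 1177 in lonp-1(cmh24) (-1.64 ± 0.11). Among stress transcription factors 9 of 16 tested members rose and 1 fell (14 higher and 0 lower with total reads). They included pqm-1 (1.06 ± 0.15), zip-3, which opposes ATFS-1 (0.87 ± 0.10), and skn-1 (0.36 ± 0.06).

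Iron, heme and metal genes went in both directions. The ferritin ftn-1 stood at 81.3, 32.3 and 65.0 in wildtype and 511, 369 and 391 in lonp-1(cmh24) (2.89 ± 0.29), while the more abundant ferritin ftn-2 fell (-0.94 ± 0.15) together with the metal importer smf-3 (-1.03 ± 0.19). Of the heme genes, 5 of 9 tested members rose and 2 fell (6 higher and 2 lower with total reads). hrg-2, induced in the skin when heme is short, rose by 2.18 ± 0.20, the intercellular heme chaperone hrg-3 by 1.45 ± 0.16, the heme mobilizer hrg-9 by 1.99 ± 0.10 and the lysosomal heme importer hrg-1 by 0.86 ± 0.17. hrg-5 (-1.60 ± 0.30) and hrg-6 (-1.10 ± 0.16) fell. The cadmium-responsive genes cdr-4 (659, 752 and 708 in wildtype and 6887, 5118 and 5571 in lonp-1(cmh24), a change of 3.04 ± 0.11) and cdr-2 (2.00 ± 0.09) and the metallothionein mtl-1 (2.51 ± 0.33) rose, and mtl-2 was not called (-0.28 ± 0.32).

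Detoxification families held members that changed in both directions. Of the cytochrome P450 genes, 37 of 61 tested members rose and 14 fell (median 0.73; 38 higher and 10 lower with scaling to total reads, median 0.95), and 30 of them rose at least 2-fold. Only 61 of 79 passed the filter on the mean. Any that passed it only through the mutant had to be higher, so these counts are a description. cyp-33C8 stood at 306, 303 and 281 in wildtype and 5638, 3714 and 4295 in lonp-1(cmh24) (3.91 ± 0.13) and cyp-14A5 rose by 2.31 ± 0.09, while cyp-35C1 (-2.19 ± 0.29) and cyp-35A3 (-3.40 ± 0.69) fell. Of the UDP-glucuronosyltransferases, which attach sugars to foreign compounds, 20 of 61 tested members rose and 21 fell (median -0.02; 27 higher and 15 lower with scaling to total reads, median 0.20). With the authors' factors these shares were close to those of all genes tested (30.1% higher and 33.4% lower). ugt-62 stood at 2337, 1734 and 2103 in wildtype and 17474, 12207 and 13470 in lonp-1(cmh24) (2.80 ± 0.14) against a fall of ugt-6 (-1.65 ± 0.15). Of the glutathione S-transferases, 10 of 42 tested members rose and 15 fell (11 higher and 12 lower with total reads). With the authors' factors these shares were also near those of all genes tested. gst-10 stood at -1.70 ± 0.09. The P-glycoprotein exporters pgp-9 (899.6, 716 and 779.5 in wildtype and 4469, 3482 and 3776 in lonp-1(cmh24), a change of 2.29 ± 0.11), pgp-5 (2.62 ± 0.10) and pgp-8 (3.08 ± 0.14) rose, and the ABC transporter haf-6 fell (-2.68 ± 0.10).

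Among lipid genes, acs-2 rose and fat-7 fell by large amounts. acs-2, a mitochondrial acyl-CoA synthetase that feeds fatty acid oxidation and is a target of NHR-49, stood at 608, 493 and 557 in wildtype and 7248, 4609 and 5266 in lonp-1(cmh24) (3.35 ± 0.15, adjusted p = 1.43e-07). fat-7, a stearoyl-CoA desaturase and also a target of NHR-49, stood at 1399, 1941 and 1565 in wildtype and 52.3, 79.0 and 73.5 in lonp-1(cmh24) (-4.57 ± 0.17, adjusted p = 5.76e-08). The paralog fat-6 was lower with the authors' factors but not with total reads (-0.16, adjusted p = 0.267), in edgeR (adjusted p = 0.056) or when any of 4 libraries was left out. nhr-49 itself stood at 1707, 1583 and 1726 in wildtype and 2021, 1897 and 1853 in lonp-1(cmh24), a rise whose call was lost without wildtype replicate 2 or 3. Fatty acid elongases held no riser and 7 that fell of 9 (1 higher and 5 lower with total reads), with elo-5, which makes branched-chain fatty acids, at -0.64 ± 0.09. The lipase atgl-1 rose (0.87 ± 0.07) and the triglyceride synthesis enzyme dgat-2 fell (-1.22 ± 0.16).

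One-carbon metabolism was lower. In the methionine cycle and phosphatidylcholine synthesis, 1 of 13 tested members rose and 10 fell (median -0.63; 1 higher and 7 lower with scaling to total reads, median -0.40). The phosphoethanolamine methyltransferase pmt-2 stood at 20707, 17930 and 20236 in wildtype and 7252, 6818 and 6842 in lonp-1(cmh24) (-1.49 ± 0.08) and S-adenosylhomocysteine hydrolase ahcy-1 at 91615, 62413 and 79217 in wildtype and 42423, 32877 and 34984 in lonp-1(cmh24) (-1.07 ± 0.15). The S-adenosylmethionine synthetase sams-1 fell by 0.69 ± 0.10 and the serine hydroxymethyltransferase mel-32 fell by 1.14 ± 0.07. The propionate shunt, which C. elegans uses when vitamin B12 is low, fell in 6 of 7 members under both scalings (median -0.71), with acdh-1 at 45712, 43304 and 42803 in wildtype and 25603, 27290 and 27460 in lonp-1(cmh24) (-0.71 ± 0.08) and hach-1 at -0.99 ± 0.09. In the B12-dependent pathway 1 of 6 tested members rose and 1 fell (2 higher and 0 lower with total reads). Amino acid stress genes did not rise, with 0 higher and 7 lower of 10 tested members (2 higher and 5 lower with total reads), and the asparagine synthetase asns-1 fell by 1.02 ± 0.08.

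Sugar metabolism rose in part. Of the genes of glycolysis and gluconeogenesis, 12 of 23 tested members rose and 5 fell (median 0.21; 15 higher and 1 lower with scaling to total reads, median 0.44). Hexokinase hxk-1 stood at 1092, 1201 and 1111 in wildtype and 3235, 3561 and 3639 in lonp-1(cmh24) (1.61 ± 0.07), the glyceraldehyde-3-phosphate dehydrogenase genes gpd-1 and gpd-4 rose by 1.53 ± 0.14 and 1.35 ± 0.13, and aldolase aldo-1 by 0.96 ± 0.09. icl-1, the enzyme of the glyoxylate cycle, rose by 0.64 ± 0.11, and the pyruvate dehydrogenase subunit pdhb-1 fell by 0.55 ± 0.07. gyg-2, a glycogenin that primes glycogen, stood at 211, 258 and 196 in wildtype and 2069, 2923 and 2675 in lonp-1(cmh24) (3.52 ± 0.14), and its paralog gyg-1 fell (-0.71 ± 0.11).

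The cytosolic translation machinery was lower nearly throughout. Of 81 cytosolic ribosomal protein genes, 80 fell and none rose (median -0.61), and 76 fell with total reads (median -0.38). Together they took 19.6, 17.2 and 18.7% (wildtype) and 13.8, 14.6 and 14.3% (lonp-1(cmh24)) of reads, with no overlap. rpl-3 stood at 134637, 111475 and 123847 in wildtype and 79435, 77031 and 77005 in lonp-1(cmh24) (-0.66 ± 0.09). Of the initiation and elongation factors, 2 of 38 tested members rose and 29 fell (median -0.43; 5 higher and 19 lower with scaling to total reads, median -0.20), with eif-3.J at -0.91 ± 0.06 and eif-2A higher (0.42 ± 0.06). Cytosolic tRNA synthetases gave the same direction (1 of 20 tested members rose and 15 fell, and 3 higher and 9 lower with total reads). The nucleolar proteins fib-1 (-0.78 ± 0.10) and nol-58 (-0.81 ± 0.08), which process rRNA, fell as well. By contrast, the TOR pathway list held 6 that rose and none that fell of 11 (10 higher and 0 lower with total reads), led by the TORC2 subunits rict-1 (627, 635 and 728 in wildtype and 1579, 1623 and 1662 in lonp-1(cmh24), a change of 1.29 ± 0.08) and sinh-1 (1.18 ± 0.16).

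Protein turnover genes went in both directions. Proteasome subunits fell in 32 of 33 cases with the authors' factors and 14 with total reads, none rose with either, and the catalytic subunit pbs-5 fell by 0.63 ± 0.06. Of the autophagy genes, 13 of 27 tested members rose and 2 fell (median 0.22; 22 higher and 1 lower with scaling to total reads, median 0.44). The ATG8 homologs lgg-1 (4595, 4311 and 4428 in wildtype and 7000, 7370 and 7097 in lonp-1(cmh24), a change of 0.69 ± 0.07) and lgg-2 (0.97 ± 0.07), the receptor sqst-1 (0.73 ± 0.13) and epg-4 (1.26 ± 0.09) rose. The vacuolar ATPase, the proton pump of lysosomes and the excretory canal, held 2 higher and 15 lower of 21 tested members (3 higher and 5 lower with total reads). Among lysosomal proteases asp-14 stood at 4073, 8080 and 5783 in wildtype and 390.3, 301 and 372 in lonp-1(cmh24) (-4.03 ± 0.21) and asp-8 at 756, 859 and 902 in wildtype and 4335, 3381 and 3712 in lonp-1(cmh24) (2.18 ± 0.10).

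Defence genes divided by family. Of the C-type lectins, 35 of 129 tested members rose and 63 fell (median -0.45; 43 higher and 53 lower with scaling to total reads, median -0.22), with clec-17 at 63.5, 22.8 and 44.4 in wildtype and 2094, 1571 and 1649 in lonp-1(cmh24) (5.42 ± 0.30), clec-87 higher by 4.33 ± 0.16 and clec-86 lower (-3.14 ± 0.17). Lysozymes and saposin-like proteins, which attack bacteria in the gut, gave 10 higher and 19 lower of 34 tested members (11 higher and 13 lower with total reads). The invertebrate lysozyme ilys-5 stood at 20570, 16273 and 19511 in wildtype and 1354, 2474 and 2048 in lonp-1(cmh24) (-3.30 ± 0.19), lys-4 fell by 2.97 ± 0.27 and spp-4 fell by 3.29 ± 0.13. Reporters of intestinal infection went both ways, with irg-1, a target of ZIP-2, at 60.5, 66.5 and 52.2 in wildtype and 426, 327 and 353 in lonp-1(cmh24) (2.60 ± 0.14) and irg-5, a target of the p38 pathway, at 428, 908 and 633 in wildtype and 58.2, 38.7 and 51.2 in lonp-1(cmh24) (-3.66 ± 0.25). The pals genes, many of them induced by microsporidia and viruses, gave 16 risers and no fall among the 20 that passed the filter of 35 in the table. Those that pass it only through the mutant had to be higher, so this count is a description. pals-6 stood at 18.9, 15.2 and 17.7 in wildtype and 609.5, 368 and 423 in lonp-1(cmh24) (4.65 ± 0.19), and pals-14 rose by 5.05 ± 0.44. Of other genes listed for the response to such pathogens, skr-5 (3.19 ± 0.26), eol-1 (3.48 ± 0.38) and cul-6 (0.66 ± 0.11) rose. The helicase drh-1, which senses viral RNA, stood at 587, 603 and 644 in wildtype and 717, 686 and 694 in lonp-1(cmh24). It was called higher, but the call was lost without the filter, with a replicate block and when any library was left out.

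Families of substrate adaptors for ubiquitin ligases leaned up, with the same limit on low genes. Of the F-box A genes, 80 of 155 tested members rose and 14 fell (median 0.58; 88 higher and 9 lower with scaling to total reads, median 0.81), and of the F-box B and C genes, 18 of 28 tested members rose and 2 fell (median 1.28; 20 higher and 1 lower with scaling to total reads, median 1.50). Of the MATH and BATH genes, 45 of 64 tested members rose and 1 fell (median 0.78; 53 higher and 1 lower with scaling to total reads, median 1.01). fbxa-215 stood at 230.1, 231 and 212 in wildtype and 1032, 1469 and 1400 in lonp-1(cmh24) (2.51 ± 0.13) and bath-45 at 23.8, 39.0 and 31.5 in wildtype and 246, 347 and 374 in lonp-1(cmh24) (3.32 ± 0.21). Of the nuclear hormone receptors, 59 of 204 tested members rose and 35 fell (median 0.11; 98 higher and 20 lower with scaling to total reads, median 0.34). nhr-115 rose by 1.97 ± 0.13, and nhr-234 stood at 157, 202 and 190.2 in wildtype and 5.06, 11.5 and 10.7 in lonp-1(cmh24) (-4.25 ± 0.28). Its neighbour on chromosome II, nhr-235, fell too (-4.47 ± 0.37).

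Oocyte and yolk transcripts were higher in the mutant at the labelled stage. Vitellogenins, the yolk proteins of the adult intestine, took 0.0940, 0.110 and 0.107% (wildtype) and 0.753, 1.07 and 1.02% (lonp-1(cmh24)) of reads, with no overlap between the groups (exact permutation test, two-sided p = 0.1, the smallest possible). All 6 rose, with vit-2 at 5894, 7682 and 7236 in wildtype and 51131, 65274 and 63528 in lonp-1(cmh24) (3.11 ± 0.12) and vit-5 at 1985, 1802 and 2012 in wildtype and 19455, 30652 and 28354 in lonp-1(cmh24) (3.73 ± 0.15). All 15 eggshell and egg activation genes rose (median 2.54), taking 0.0659 ± 0.00796% of reads in wildtype against 0.468 ± 0.0825% in the mutant (SD, n = 3). cpg-2, a chondroitin proteoglycan of the eggshell, stood at 1374, 1731 and 1569 in wildtype and 14501, 19345 and 18103 in lonp-1(cmh24) (3.47 ± 0.12), and the sperm-binding receptor egg-1 rose by 3.28 ± 0.16. Of the regulators of oocytes and early embryos, 23 of 26 tested members rose and 2 fell (median 2.61; 24 higher and 1 lower with scaling to total reads, median 2.84). meg-1, a germ granule protein of the embryo, stood at 8.93, 24.7 and 14.8 in wildtype and 757, 998 and 944 in lonp-1(cmh24) (5.81 ± 0.29) and nos-2, a maternal Nanos homolog, at 13.9, 24.7 and 11.8 in wildtype and 609.5, 1053 and 934 in lonp-1(cmh24) (5.63 ± 0.27). The polarity protein mex-5 rose by 2.30 ± 0.10, while the germ granule helicase glh-1 fell (-0.52 ± 0.06).

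Genes of DNA replication, cell division and the germ line mostly rose as well. In RNA of whole worms, the tissue in which they rose was not tested. All 23 DNA replication genes rose (median 0.85), led by the ribonucleotide reductase subunit rnr-2 at 1427, 1319 and 1504 in wildtype and 7007, 7777 and 7660 in lonp-1(cmh24) (2.40 ± 0.07). Of the mitotic cell cycle genes, 21 of 24 tested members rose and 0 fell (median 0.74; 22 higher and 0 lower with scaling to total reads, median 0.97), with the cyclin cyb-3 at 2.02 ± 0.10. Of the meiosis genes, 15 of 24 tested members rose and 1 fell (median 0.43; 21 higher and 0 lower with scaling to total reads, median 0.66), led by lab-1 (1.68 ± 0.15). The Notch receptor glp-1 (1.02 ± 0.08), its target sygl-1 (1.55 ± 0.12) and the translational repressor gld-1 (1.09 ± 0.08) rose, and fbf-2 fell (-0.63 ± 0.09). The gap junction genes inx-14 (1.40 ± 0.15) and inx-22 (1.22 ± 0.14), which join oocytes to the gonadal sheath, rose, and the sheath regulator ceh-18 was lower with the authors' factors (-0.18 with total reads, adjusted p = 0.0713). Among Argonautes hrde-1, which carries nuclear silencing through generations, rose by 1.28 ± 0.10 and wago-10 fell by 1.0 ± 0.11.

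Sperm transcripts changed less and in both directions. Major sperm proteins took 0.112, 0.124 and 0.116% (wildtype) and 0.158, 0.169 and 0.156% (lonp-1(cmh24)) of reads, again with no overlap (exact permutation test, two-sided p = 0.1). Of their genes, 19 of 31 tested members rose and 6 fell (median 0.33; 23 higher and 3 lower with scaling to total reads, median 0.56), but in a fit of all 12 libraries, where the spread of the other genotypes enters, 0 were called higher and 1 lower. msp-33 stood apart from its family at 1090, 1154 and 1069 in wildtype and 185, 232 and 182 in lonp-1(cmh24) (-2.47 ± 0.11). Of the other sperm genes, 16 of 58 tested members rose and 17 fell (median -0.12; 20 higher and 7 lower with scaling to total reads, median 0.11), shares close to those of all genes tested. In the fit of all 12 libraries 6 of them were called higher and 10 lower. spe-41, a channel of the sperm membrane, rose (1.01 ± 0.11), and fer-1 (-1.02 ± 0.11) and spe-4 (-0.98 ± 0.10), both needed for the membranous organelles of sperm, fell.

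Timing genes of larval development pointed in both directions. lin-41, the RNA-binding protein that falls as larvae become adults and is also made in oocytes, stood at 1058, 634 and 826 in wildtype and 2668, 2559 and 2670 in lonp-1(cmh24) (1.68 ± 0.15), and lin-28, a larval timing gene, rose (0.56 ± 0.07). lin-29 (1421, 1362 and 1393 in wildtype and 811, 784 and 763 in lonp-1(cmh24), a change of -0.82 ± 0.07) and its cofactor mab-10 (-0.94 ± 0.14), which bring the skin to its adult state, fell. The period homolog lin-42, which cycles with the molts, fell by 0.59 ± 0.11. Molting regulators held no riser and 7 that fell of 11 (1 higher and 6 lower with total reads), with blmp-1 at -0.81 ± 0.12 and nhr-25 at -0.73 ± 0.12, while nhr-23, which drives each molt, was not called (-0.03 ± 0.09).

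Cuticle genes went in both directions, and some by large amounts. The furrow collagens, which set the ring-shaped grooves of the cuticle, all fell (6 of 6, median -1.18), with dpy-7 at 7587, 6842 and 7518 in wildtype and 3315, 3397 and 3278 in lonp-1(cmh24) (-1.13 ± 0.07). Of the body-shape and blister collagens, 2 of 15 tested members rose and 13 fell (median -1.13; 2 higher and 12 lower with scaling to total reads, median -0.90). sqt-1 stood at 25473, 31291 and 29721 in wildtype and 12021, 11273 and 11527 in lonp-1(cmh24) (-1.31 ± 0.09) and bli-1, a strut collagen of the adult cuticle, at 10153, 14997 and 12619 in wildtype and 5737, 3795 and 4343 in lonp-1(cmh24) (-1.45 ± 0.17). The risers of that list were dpy-14, at 9.92, 5.70 and 9.86 in wildtype and 125, 279.8 and 220.5 in lonp-1(cmh24) (4.42 ± 0.31), and dpy-17 (1.72 ± 0.23). Of the col collagens, 58 of 144 tested members rose and 66 fell (median -0.22; 59 higher and 59 lower with scaling to total reads, median 0.01), and 52 rose at least 2-fold. In the apical matrix and molting list, 1 of 24 tested members rose and 19 fell (median -0.75; 3 higher and 17 lower with scaling to total reads, median -0.52), with mlt-10 at 8230, 10225 and 9021 in wildtype and 4420, 3147 and 3688 in lonp-1(cmh24) (-1.29 ± 0.12) and cut-2 at -1.65 ± 0.11. Hedgehog-related genes, most of them made in the skin as it molts, gave 11 higher and 33 lower of 49 tested members (12 higher and 27 lower with total reads), with wrt-4 at 3688, 6322 and 4789 in wildtype and 1441, 882 and 1027 in lonp-1(cmh24) (-2.14 ± 0.21). Astacin proteases fell in 18 of 32 cases and rose in 5 (6 higher and 14 lower with total reads), and nas-37, which opens the old cuticle, fell by 1.41 ± 0.07. The peroxidase skpo-1 rose (3.03 ± 0.24).

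The collagens that rose most were almost silent in wildtype and differed widely among the mutant libraries. col-95 stood at 1.98, 3.80 and 3.94 in wildtype and 2585, 5651 and 5092 in lonp-1(cmh24). col-37 stood at 0.992, 2.85 and 0 in wildtype and 5604, 1006 and 2076 in lonp-1(cmh24), and col-2, a collagen known from the dauer cuticle, at 4.96, 8.55 and 2.96 in wildtype and 7873, 1333 and 2636 in lonp-1(cmh24). cut-1, a cuticlin of the dauer alae, stood at 4.96, 0.950 and 3.94 in wildtype and 2541, 478 and 909.9 in lonp-1(cmh24) (8.07 ± 0.58), and the hedgehog-related genes grl-25 and grl-20 at 5.95, 5.70 and 8.87 in wildtype and 4134, 693 and 1338 in lonp-1(cmh24), and 2.98, 0.950 and 1.97 in wildtype and 1655, 339.8 and 543 in lonp-1(cmh24). Replicate 1 was the highest mutant library for all of these except col-95. Over all genes with a group mean of at least 50, replicate 1 was at least 3-fold above both other mutant libraries in 17 genes, replicate 2 was at least 3-fold below both others in 5, and no wildtype library stood apart so from its group in any gene. Without replicate 1 the changes were 9.52 for col-37, 8.27 for col-2, 7.42 for cut-1, 6.96 for grl-25 and 7.24 for grl-20. In the double mutant the same genes stood at 23.8, 63.0 and 25 (col-37), 75.3, 129 and 55.9 (col-2) and 42.9, 62.1 and 25 (grl-25). Yolk transcripts ran the other way within the group, since replicate 1 was the lowest mutant library in vitellogenin reads. The part of stage in these differences was not tested.

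**Figure D4:**
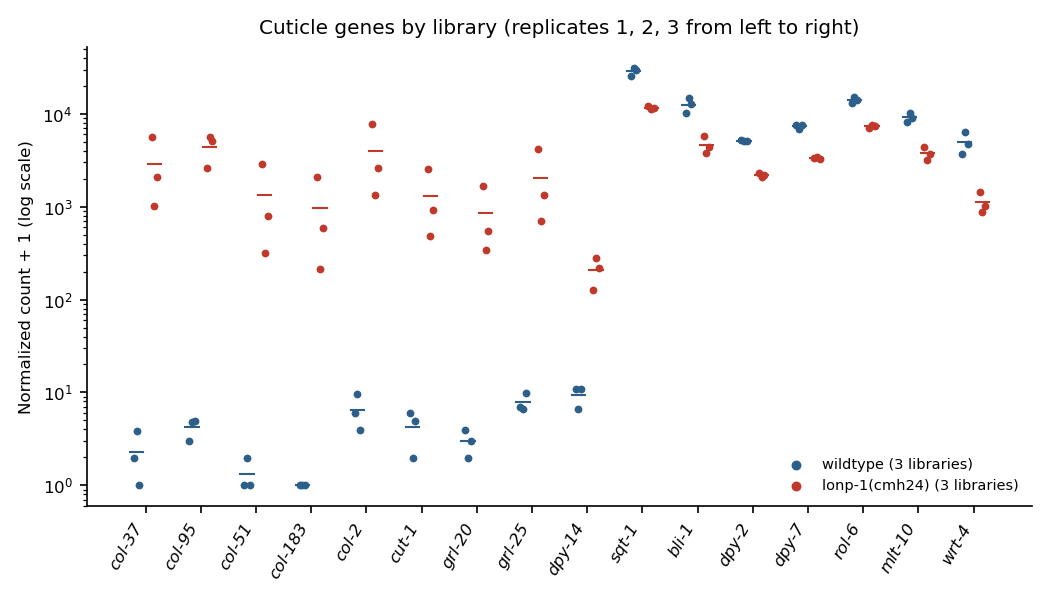
Normalized count + 1 (log axis) of cuticle genes in each wildtype (blue) and lonp-1(cmh24) (red) library, replicates 1 to 3 from left to right, with a bar at the group mean. The genes at the left are near 0 in wildtype and spread widely in the mutant, with replicate 1 highest for all but col-95 and dpy-14, while sqt-1, dpy-2, dpy-7 and rol-6 are lower in all 3 mutant libraries with little spread.

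Because dauer-type cuticle genes rose, genes of the pathways that control dauer entry were listed after these values were seen. Of 15, 6 rose and 2 fell (7 higher and 0 lower with total reads). Over all 15701 genes tested, 6429 were higher and 3203 lower with total reads. The changes of this list ran from -0.64 to 0.75, and the 2 members that fell are not among those named below. The PI3 kinase age-1 (0.75 ± 0.08), the kinase akt-1 (0.48 ± 0.07), the insulin receptor daf-2 (0.51 ± 0.15) and the FOXO factor daf-16 (0.32 ± 0.06) rose. The TGF-beta ligand daf-7 (-0.05 ± 0.10) and the steroid hormone enzyme daf-9 (-0.25 ± 0.15) were not called, though daf-9 was called lower without wildtype replicate 2 (adjusted p = 0.0347).

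Markers of somatic tissues were present in all 6 libraries and did not move alike. All 27 body wall muscle genes fell (median -0.94, with 26 lower with total reads), from 2.35, 2.75 and 2.54% (wildtype) and 1.50, 1.45 and 1.46% (lonp-1(cmh24)) of reads. The myosin heavy chain unc-54 stood at 84790, 103080 and 98881 in wildtype and 42779, 39678 and 42419 in lonp-1(cmh24) (-1.20 ± 0.10) and the troponin I gene tni-1 at 4536, 4872 and 4385 in wildtype and 1248, 1446 and 1341 in lonp-1(cmh24) (-1.77 ± 0.08). In the pharynx 2 of 18 tested members rose and 14 fell (3 higher and 11 lower with total reads), with the pharyngeal myosin myo-2 at -1.40 ± 0.11 and the gland gene phat-4 at -1.82 ± 0.09. The changes of the pharynx list ran from -1.91 to 2.77. Of the coelomocyte and excretory cell markers, 0 of 10 tested members rose and 6 fell (median -0.37; 1 higher and 4 lower with scaling to total reads, median -0.14). The coelomocyte genes unc-122 (89.3, 76.0 and 65.0 in wildtype and 21.1, 14.8 and 19.0 in lonp-1(cmh24), a change of -2.01 ± 0.20), cup-4 (-2.05 ± 0.18) and lgc-26 (-1.92 ± 0.18) were the members that fell at least 2-fold. Of the intestinal markers, 4 of 15 tested members rose and 3 fell (6 higher and 1 lower with total reads), with elt-2, the factor that specifies the intestine, at 504, 410.5 and 426 in wildtype and 611, 403 and 507 in lonp-1(cmh24) (0.17 ± 0.15, not called, and 0.40 with total reads, adjusted p = 0.0321) and cpr-1, a gut protease, lower (-1.41 ± 0.24). The changes of the intestinal list ran from -1.41 to 0.76. Over all genes tested, 30.1% rose and 33.4% fell with the authors' factors.

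In neurons 2 of 28 tested members rose and 17 fell (median -0.46; 4 higher and 9 lower with scaling to total reads, median -0.24). The touch neuron acetyltransferase mec-17 (-0.90 ± 0.07), the tubulins mec-7 (-0.89 ± 0.08) and mec-12 (-1.01 ± 0.06) and the acetylcholine transporter unc-17 (-0.68 ± 0.11) fell. The risers were the enzymes of octopamine and tyramine synthesis, tbh-1 at 53.6, 156 and 82.8 in wildtype and 748, 1169 and 1087 in lonp-1(cmh24) (3.46 ± 0.33) and tdc-1 at 422, 428 and 409.9 in wildtype and 1888, 2472 and 2397 in lonp-1(cmh24) (2.41 ± 0.10), both also made in the gonadal sheath. tbb-6, a tubulin used as a marker of mitochondrial stress, stood at 111, 139.7 and 141 in wildtype and 1640, 1100 and 1159 in lonp-1(cmh24) (3.29 ± 0.16). Among insulin-like peptides 5 of 22 tested members rose and 8 fell (5 higher and 4 lower with total reads). Their changes ran from -1.84 ± 0.24 for ins-9 to 1.16, and ins-27 fell by 0.86 ± 0.11. Of the FMRFamide-like peptides, 7 of 30 tested members rose and 4 fell (median -0.04; 14 higher and 1 lower with scaling to total reads, median 0.19), and flp-8 was lowest (-0.64 ± 0.12). Chemoreceptors passed the filter in 57 of 651 cases, and sri-40 stood at 23.8, 49.4 and 31.5 in wildtype and 337, 611 and 610.2 in lonp-1(cmh24) (3.87 ± 0.29) against srw-85 at 387, 338 and 361 in wildtype and 29.5, 18.9 and 24.8 in lonp-1(cmh24) (-3.86 ± 0.17).

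Some genes were on in 1 group and without a read in the other. Wildtype had no read for 14 genes with a mutant mean of at least 50, among them the Skp1-related genes skr-7, at 186, 227 and 182 in lonp-1(cmh24), skr-14, at 97.8, 84.8 and 92.5, and skr-15, at 48.9, 90.5 and 61.9. Set against a floor of 3 reads in each wildtype library, skr-7 was at least 67.8-fold higher. F22B3.7, on chromosome IV, stood at 0, 1.90 and 0 in wildtype and 1243, 1081 and 1126 in lonp-1(cmh24), and the pseudogene srx-70 at 0, 0 and 0.986 in wildtype and 546, 517 and 514 in lonp-1(cmh24), with little spread in the mutant and counts of 929, 966 and 913 and 258, 246 and 267 in the double mutant. In the other direction C09E7.8 (chromosome III, 6553627 to 6558587) stood at 306, 405 and 374 in wildtype with no read in lonp-1(cmh24) or the double mutant, and was at least 145-fold lower. W08E12.4 stood at 124, 61.8 and 76.9 in wildtype and had no read in any library of the other 3 genotypes. BE0003N10.6 (chromosome III, 1056230 to 1060061) stood at 712, 1157 and 836 in wildtype and 9.27, 6.58 and 16.5 in lonp-1(cmh24) (-6.32 ± 0.29), and at 14.3, 19.4 and 10.6 in the double mutant. D1014.7, on chromosome V beside D1014.6, stood at 154, 316 and 203 in wildtype and 5.06, 6.58 and 11.6 in lonp-1(cmh24) (-4.70 ± 0.32). D1014.6 itself stood at 162, 333 and 224 in wildtype and 2.53, 0.823 and 0 in lonp-1(cmh24).

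The chromosomes did not share the changes equally. On the autosomes 30.4 to 35.0% of genes tested rose and 30.3 to 34.1% fell, but on the X chromosome 18.6% rose and 41.3% fell. With total reads, 615 of 2243 genes were higher and 586 lower on the X chromosome. The same counts were 1119 and 474 of 2522 on chromosome I, 1215 and 481 of 2694 on II and 1059 and 411 of 2375 on III. They were 1092 and 558 of 2670 on IV and 1315 and 693 of 3183 on V. As background, the X chromosome is largely silent in the C. elegans germ line until oocytes form. Changes of at least 2-fold upward were most frequent on chromosome V (14.8%) and least on chromosome III. Of 555 pseudogenes tested, 23.2% rose at least 2-fold, against 10.8% of protein-coding genes. Only 555 of 1079 pseudogenes passed the filter on the mean, some of which may have passed it only through the mutant, so these shares are a description. Of all 1834 genes at a mean of 10 to 30, 472 rose at least 2-fold. The most abundant genes leaned down, with 257 lower and 40 higher of 324 at a mean of at least 10000 (215 and 49 with total reads). The 50 genes most abundant in wildtype took 18.3, 17.1 and 18.2% (wildtype) and 13.7, 13.3 and 13.3% (lonp-1(cmh24)) of reads.

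**Figure D5:**
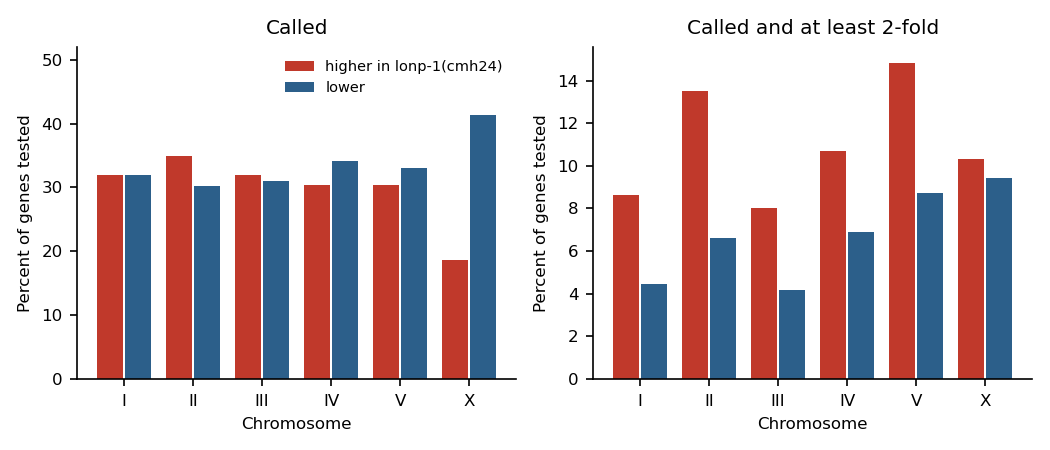
Percent of the genes tested on each nuclear chromosome that were called higher (red) or lower (blue) in lonp-1(cmh24), at left for all calls and at right for calls of at least 2-fold. The X chromosome has the lowest share of higher and the highest share of lower calls, while at 2-fold chromosome V has the highest share of higher calls.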

How the data were processed

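RNA of whole L4 worms was extracted with Trizol and sequenced as stranded paired-end libraries, per the labels' protocols. Per the submitters' processing notes, STAR, featureCounts, DESeq2 and the WBcel235 build were used (the sources used here give neither versions nor the annotation release or strand setting of counting). A table of DESeq2 normalized counts (unit signal, reads divided by 1 size factor per library) and a table of FPKM, each with 19568 genes in 12 libraries, were deposited by the authors. In the normalized counts 100.0% of values were whole multiples of 1 step per library within 0.01, so whole reads were recovered, and FPKM recomputed from them differed by at most 1.1e-14 (relative). Gene names and 1-based positions are those of the tables.

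The test was limma (3.58.1, R 4.3.3, statmod 1.5.0) with the trend and robust options of its empirical Bayes step, on log2(normalized count + 1) of the 6 libraries, over genes with a mean of at least 10, two-sided, with Benjamini-Hochberg adjustment at 0.05. Alternatives were pseudocounts of 0.5 and 5, no filter and a stricter filter at a mean of 50, TMM factors, total reads, median-ratio factors leaving out germline and cuticle lists, the FPKM table (log2(FPKM + 0.1), mean of at least 0.5), all 12 libraries, no robust option, edgeR's quasi-likelihood test (4.0.16), DESeq2 (1.42.0), a replicate block, and each library left out. Read shares were compared by an exact permutation test (scipy 1.17.1). The fit was tested on simulated data.

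The 101 gene lists (862 entries, 23 without a match) and the comparison itself were chosen with earlier results of these data known. Rules set which genes could be named. The 12 largest changes per direction were taken among called genes with a mean of 50 or more. These also needed groups without overlap and the same call under 3 scalings. Lists of up to 15 gave all members, and longer lists up to 4 called members per direction and the 3 of highest mean. Also included were lonp-1, hsp-6, hsp-60, atfs-1, mitochondrial genes and vitellogenins. The last were genes without a read in 1 group and a mean of at least 50 in the other. The dauer genes and the genes in which 1 mutant library stood apart were added after their values were seen. Together these made 996 genes, of which the text does not name all. It names 248 tested genes, and which of the 996 to print was not set by rule. The labels call the replicates biological, but nothing says from which cultures, so p-values measure the spread between these libraries. The transcripts of mrps-38 and atf-4 are not analysed here, 1 gene of the dauer pathways is not reported, and no sequence is printed because none was among the references used.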

Additional observations from a re-analysis of the deposited data

How the results depend on the processing

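Against 4720 genes higher and 5249 lower with the authors' factors, scaling to total reads gave 6429 and 3203 and the FPKM table, which is the same reads per total and length, 6375 and 3094. Genes called and at least 2-fold lower went from 1063 to 596 with total reads and 600 on FPKM. Genes at least 2-fold higher numbered 1776, against 2342 with total reads, 2609 with no filter and 1123 with a filter at a mean of 50, the filters changing how many genes were tested. edgeR called 5009 higher and 4919 lower, DESeq2 4854 and 4421. Leaving out 1 library at a time gave 4146 to 4914 higher and 4409 to 5384 lower, 1723 to 1839 at least 2-fold higher and 976 to 1196 lower, and differences in the percent of reads of 1.92 to 2.27 for mitochondrial genes, 0.783 to 0.943 for vitellogenins and 0.0400 to 0.0472 for major sperm proteins. Of the 248 tested genes the text names, 6 lost their call with total reads, 4 gained one and 1 changed sign (with a call on 1 side only); without replicate 1 of lonp-1(cmh24) the same counts were 1, 2 and 0. The change of sign was that of clpp-1, just below 0 with the authors' factors and called higher at 0.23 with total reads and on FPKM.

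Replicate numbers did not pair the libraries, as same-numbered libraries of the groups deviated with correlations of 0.069, 0.082 and -0.019. With the number as a replicate block, 4743 genes were called higher and 5289 lower. Depth limits the genes under a mean of 30 most, with a median SE of 0.296 against 0.0762 at a mean of 1000 to 3000.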
